A study of Mus musculus with 4 samples.

Results

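Nuclear genes for the subunits of the respiratory chain were described in RNA-seq of mouse colonic mucosa. The genes were taken by symbol (Nduf with a letter a, b, c, s or v, Uqcr, Cox4 to Cox8, Atp5, and Sdha to Sdhd) from the gene list of the first wild-type library. Of 93 matching symbols, 1 pseudogene name, 7 Ndufaf and 2 Sdhaf assembly factors were left out. That gave 83 of the 19308 genes listed for every library: 38 of complex I, 4 of complex II, 8 of complex III, 16 of complex IV and 17 of complex V. All 83 are annotated as protein-coding in GENCODE M21, and all passed the filter on low counts. Complexes were assigned by symbol. This places Atp5s and Atp5sl (Dmac2 in the annotation) in complex V, although their products are not subunits of ATP synthase, and Ndufa4 in complex I, although its product is now counted with complex IV.

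The series compared wild-type (WT) mice, whose labels give C57BL/6, with mice that lack Itch, the gene of a HECT-type E3 ubiquitin ligase (Itch KO). Each group held 2 libraries of total RNA from colonic mucosa, and age, sex and any treatment are not given in the labels. The protocol describes the knockout mucosa alone as inflamed, while the sample labels give inflammation for all 4 samples. The labels do not say whether the replicates are different mice, and the p-values reflect no more than the spread among the libraries. On the protocol's description, effects of Itch loss and of inflammation cannot be told apart, since no group has one without the other.

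Over the genes listed for all libraries, depth was 8181193 to 12199709 counts. Itch stood at 204 and 183 CPM (counts scaled to library size) in WT and 11.9 and 13.4 CPM in Itch KO. Colon epithelium markers were present in all libraries, with summed CPM of 1892 and 2346 in WT, and 1801 and 2378 in Itch KO. The 8 leukocyte markers summed to 358 and 406 CPM in WT and 1094 and 1287 CPM in Itch KO, and both Itch KO libraries exceeded both WT libraries for 8 of 8. WT replicate 1 stood apart in squamous epithelium markers (707 CPM against 14.3 to 34.4 in the other libraries) and striated muscle markers (347 CPM against 41.7 to 63.7). WT replicate 2 stood apart in adipocyte markers (220 CPM against 44.3 to 76.8). In bulk mucosa, fewer cells of a type and less RNA per cell cannot be told apart.

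The respiratory chain sits in the inner mitochondrial membrane. Complexes I and II pass electrons from NADH and succinate to ubiquinone, complex III passes them to cytochrome c, and complex IV passes them to oxygen. The protons pumped by complexes I, III and IV drive ATP synthesis by complex V. Most subunits are encoded in the nucleus, and a small core is encoded in mitochondrial DNA. Colonocytes depend on this chain because they oxidise butyrate, a bacterial product, as their main fuel. Nuclear subunit genes are known targets of the transcription factors NRF1, GABP (an ETS factor) and YY1, and of the coactivator encoded by Ppargc1a.

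RefSeq promoter windows (GRCm38.p6, 250 bases before to 50 after the annotated start) were given for 69 of the 83 genes. Exact matches on either strand were searched for an NRF1 core (CGCATGCG), an ETS motif (CCGGAAGT) and a YY1 motif (AAGATGGCG). The NRF1 core stood in 8 of the 69 windows (11.6%), among them those of Uqcrc1, Cox6a1 and Atp5k, against 1.91% of the windows of 27025 genes. For the YY1 motif the count was 7 (10.1%, against 1.5% of all), including Ndufs7 and Ndufs4, and for the ETS motif 5 (7.25%, against 4% of all). At least 1 motif was found in 19 member windows (27.5%, against 7.04% of all), and no 2 matches overlapped. Median GC content was 57.3% in the member windows and 52.7% in all windows. A match is a run of letters and does not show that a factor binds there.

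The first 280 bases of 4 windows are shown because they set subunits made in all tissues beside restricted isoforms, which varied most in these libraries. Uqcr11, a small subunit of complex III, holds 2 of the motifs, and Cox8a, the ubiquitous form of the smallest complex IV subunit, holds an ETS motif on the other strand. Its muscle form Cox8b and the testis form Cox6b2 hold none of the 3 in these windows. Most of the 69 searched windows hold none either, among them those of the ubiquitous Cox6b1, Cox7a2 and Ndufa4. Lack of these motifs therefore does not set these 2 restricted forms apart. Nothing is said of the isoform genes Cox4i2, Cox6a2 and Ndufa4l2, for which no window was given. Capitals mark the motifs, and each sequence runs 5′ to 3′ along the gene. The windows lie on the minus strand, at chr10:80406792-80407071 (Uqcr11), chr19:7217587-7217866 (Cox8a), chr7:140900417-140900696 (Cox8b) and chr7:4753065-4753344 (Cox6b2).
Uqcr11: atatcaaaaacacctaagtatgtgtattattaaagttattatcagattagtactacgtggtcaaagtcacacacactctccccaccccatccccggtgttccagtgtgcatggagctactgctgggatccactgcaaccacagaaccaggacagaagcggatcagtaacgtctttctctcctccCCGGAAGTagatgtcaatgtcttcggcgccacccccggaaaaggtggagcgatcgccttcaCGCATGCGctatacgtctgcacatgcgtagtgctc
Cox8a: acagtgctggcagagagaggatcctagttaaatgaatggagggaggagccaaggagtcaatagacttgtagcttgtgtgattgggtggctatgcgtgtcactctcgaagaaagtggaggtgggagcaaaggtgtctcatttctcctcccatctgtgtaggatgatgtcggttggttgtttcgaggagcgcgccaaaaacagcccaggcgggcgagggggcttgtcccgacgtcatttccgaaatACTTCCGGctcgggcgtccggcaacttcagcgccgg
Cox8b: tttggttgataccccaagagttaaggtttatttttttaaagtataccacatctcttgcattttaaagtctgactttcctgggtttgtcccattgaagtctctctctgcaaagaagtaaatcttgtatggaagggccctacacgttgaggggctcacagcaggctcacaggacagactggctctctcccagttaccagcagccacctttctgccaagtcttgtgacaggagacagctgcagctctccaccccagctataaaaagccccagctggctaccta
Cox6b2: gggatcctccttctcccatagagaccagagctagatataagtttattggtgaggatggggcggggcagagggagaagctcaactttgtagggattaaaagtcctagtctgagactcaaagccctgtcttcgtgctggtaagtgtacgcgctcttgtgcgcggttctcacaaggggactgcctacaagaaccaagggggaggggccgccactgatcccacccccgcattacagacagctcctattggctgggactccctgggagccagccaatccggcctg

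No subunit gene passed the test between Itch KO and WT mucosa, but the genes shared a small difference in one direction. The log2 fold change of Itch KO over WT (log2FC) was positive for 75 of the 83 genes (90.4%), against 50.6% of the 16956 genes tested. Its median was 0.227, a 1.17-fold higher level in Itch KO, against 0.008 over all genes. The values were close together, with an interquartile range of 0.158 against 0.75 over all genes. The median standard error of a single member was 0.19, of about the same size as the median difference.

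edgeR's quasi-likelihood test with Benjamini-Hochberg adjustment over all genes called 0 members, and it called 0% of all genes. At an unadjusted p below 0.05 there were 0 members, against 19.7% of all genes. Both Itch KO libraries exceeded both WT libraries for 45 members (54.2%), against 30% of all genes. Both lay below both WT libraries for 3 members (Ndufb2, Cox8b and Atp5s), against 26% of all genes. The other 35 overlapped between groups. The members' mean log2 CPM had a spread of 0.103 between replicates (the standard error of the group difference from within-group deviations), and the median difference was larger than this. It was not larger than the difference within the Itch KO group: the median member was 0.25 higher on the log2 scale in Itch KO replicate 1 than in replicate 2. Without Itch KO replicate 1 the median was 0.094, with 61 members positive, and without Itch KO replicate 2 it was 0.33, with 78 positive.

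**Figure D1:**
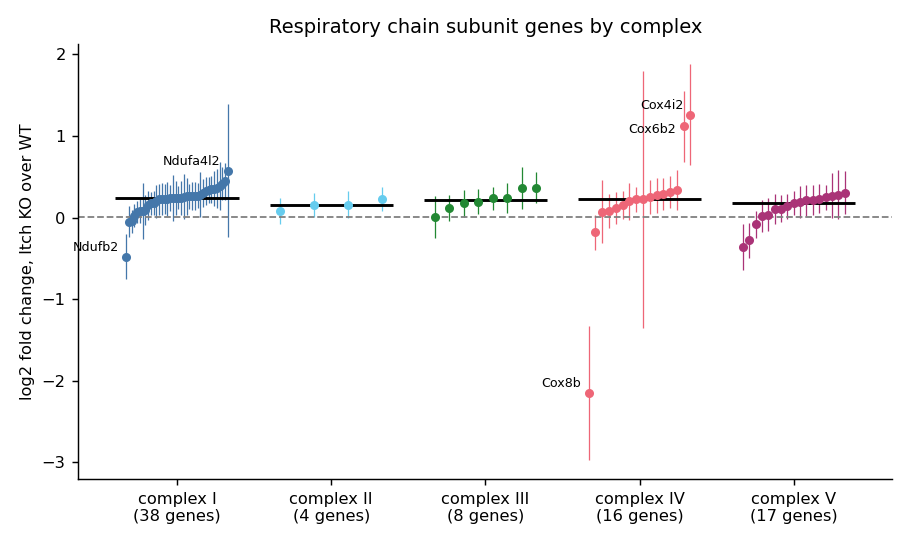
Log2 fold change of Itch KO over WT for each of the 83 subunit genes (points, bars are standard errors), sorted within complexes I to V, with black lines at the median of each complex and a dashed line at the median of all genes tested. Most points lie between 0 and 0.5, the medians of the complexes lie between 0.154 and 0.24, and Cox8b, Cox6b2 and Cox4i2 stand apart.

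The 5 complexes had similar medians. The median log2 fold change was 0.24 in complex I, 0.154 in complex II, 0.215 in complex III, 0.223 in complex IV and 0.177 in complex V. The range of these medians was narrower than the replicate spread of each complex, which was 0.106, 0.144, 0.133, 0.176 and 0.119 in the same order, and the complexes were not tested against each other. Both Itch KO libraries exceeded both WT libraries for 26 of 38 genes of complex I, 1 of 4 of complex II, 4 of 8 of complex III, 8 of 16 of complex IV and 6 of 17 of complex V. These are shares of 68.4%, 25%, 50%, 50% and 35.3%, against 30% of all genes, and those of complexes II and V lay near that background. A single library moved each median: without Itch KO replicate 1 they were 0.116, 0.015, 0.065, 0.107 and 0.043. Without Itch KO replicate 2 they were 0.352, 0.281, 0.346, 0.35 and 0.288. Leaving out WT replicate 1 gave 0.3, 0.243, 0.267, 0.362 and 0.252, and leaving out WT replicate 2 gave 0.182, 0.076, 0.16, 0.127 and 0.118. All stayed positive when any 1 library was left out.

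In complex I, the NADH dehydrogenase, 35 of 38 genes had a positive log2 fold change. Ndufv1, whose product binds NADH, stood at 108 and 106 CPM in WT and 135 and 109 CPM in Itch KO, in replicate order here and below. Ndufs7, which carries the last iron-sulfur cluster before ubiquinone, stood at 54.8 and 57.9 against 73 and 62.1 CPM (log2FC 0.26, SE 0.15). In both of these core genes the groups did not overlap, and Itch KO replicate 1 was the highest library. For Ndufv1 the groups nearly touched, at 108.5 CPM in WT replicate 1 and 108.65 CPM in Itch KO replicate 2. The groups overlapped for Ndufs1, the largest subunit and an iron-sulfur protein, at 118 and 122 against 134 and 111 CPM (log2FC 0.02, SE 0.14).

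Apart from Ndufa4l2, described with the isoforms, the largest differences in complex I belonged to accessory subunits. Ndufb3 (ENSMUSG00000026032, GRCm38 chr1:58586384-58595964, plus strand), a membrane arm subunit, stood at 30.4 and 29.3 against 41.7 and 38 CPM. Its means were 29.8 ± 0.813 in WT and 39.8 ± 2.58 CPM in Itch KO (SD, n = 2 each). This gave a log2FC of 0.42 (SE 0.20), with the smallest p of complex I (edgeR adjusted p = 0.326). Ndufa12, an accessory subunit, stood at 23.5 and 26.2 against 35.3 and 32.3 CPM (log2FC 0.44, SE 0.23). Ndufb2 (GRCm38 chr6:39592574-39603382, plus strand), a membrane arm subunit, pointed the other way, at 24.4 and 28.7 against 19.4 and 18.7 CPM (log2FC -0.48, SE 0.28, edgeR adjusted p = 0.391). It was the only complex I gene with both Itch KO libraries below both WT libraries. Its annotated exons partly overlap those of other genes on both strands (7.94% of exonic bases), and the strand setting of the counting is not given. Ndufab1, the mitochondrial acyl carrier protein, stood at 79.2 and 96.9 against 95 and 75.1 CPM. Ndufv3, an accessory subunit near the NADH site, stood at 73.1 and 66.5 against 71.9 and 63.1 CPM. Both overlapped between groups with log2 fold changes of -0.05.

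Complex II, succinate dehydrogenase, has no mitochondrially encoded subunit and also works in the tricarboxylic acid cycle. Sdha, the flavoprotein that oxidises succinate, stood at 202 and 191 against 227 and 188 CPM (log2FC 0.08, SE 0.16). Sdhb, its iron-sulfur partner, stood at 74.3 and 71.9 against 88.2 and 73.7 CPM (log2FC 0.15, SE 0.15). The groups overlapped in both. Of the membrane anchors, Sdhd also overlapped, at 98 and 83 against 111 and 91.5 CPM. Sdhc did not, at 80.7 and 73.2 against 97.4 and 82.8 CPM (log2FC 0.23, SE 0.15, edgeR adjusted p = 0.432), the smallest p of the 4.

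Complex III, the cytochrome bc1 complex, had 8 of 8 log2 fold changes above 0, and Itch KO replicate 1 was the highest library for all 8. Uqcrfs1, the Rieske iron-sulfur protein, stood at 77.3 and 73.5 against 96.3 and 81.4 CPM (log2FC 0.24, SE 0.14). Uqcrc1, a core protein, stood at 121 and 114 against 148 and 120 CPM (log2FC 0.19, SE 0.15). Uqcr10 and Uqcrq, small subunits of the complex, did not overlap between groups. Uqcr10 stood at 41.4 and 38.5 against 51.7 and 42.8 CPM. Uqcrq stood at 34.5 in both WT libraries against 48 and 40.8 CPM, with the smallest p of the complex (log2FC 0.37, SE 0.19, edgeR adjusted p = 0.355). Uqcr11, whose promoter is printed above, stood at 21.1 and 24.2 against 31 and 27.2 CPM (log2FC 0.36, SE 0.26). Uqcrb, a quinone-binding subunit, was at 26.8 and 27.4 against 30.1 and 24.3 CPM (log2FC 0.01, SE 0.25). It has 3 near-identical annotated copies elsewhere in the genome, so its count is uncertain.

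In complex IV, cytochrome c oxidase, the catalytic core is mitochondrially encoded and the nuclear subunits surround it. Cox4i1, the largest nuclear subunit, stood at 61.8 and 54.6 against 70.5 and 59.1 CPM (log2FC 0.16, SE 0.17), and the groups overlapped. Cox5a stood at 25.8 and 24.4 against 34.8 and 28.8 CPM (log2FC 0.34, SE 0.24). Cox5b stood at 28.4 and 29.3 against 36.4 and 29.7 CPM (log2FC 0.20, SE 0.23). These 2 matrix-facing subunits did not overlap between groups. Apart from Cox8b, the sole negative value of the complex was that of Cox6c, a small membrane subunit, at 47.8 and 48.4 against 48.7 and 36.1 CPM (log2FC -0.18, SE 0.21). Its groups overlapped, and Itch KO replicate 2 was lowest.

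Complex V, ATP synthase, joins a catalytic head to a proton-driven ring. Atp5b, the catalytic beta subunit, stood at 208 and 176 against 227 and 186 CPM (log2FC 0.10, SE 0.18). Atp5a1, the alpha subunit, stood at 207 and 173 against 243 and 199 CPM (log2FC 0.22, SE 0.18). Atp5c1, the gamma subunit of the rotor, stood at 89.7 and 78.2 against 101 and 83.9 CPM. All 3 overlapped between groups, since Itch KO replicate 2 lay below WT replicate 1. Atp5d, the delta subunit, did not overlap, at 76.9 and 68 against 93.3 and 78.6 CPM, and had the smallest p of the complex (log2FC 0.25, SE 0.16, edgeR adjusted p = 0.426). Atp5k, a membrane subunit, had the highest log2 fold change, at 21.7 and 21.4 against 28.4 and 24.7 CPM (0.30, SE 0.26).

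The ring of ATP synthase is built from 1 protein that 3 genes encode. Per kb of the main transcript, Atp5g3 averaged 111 CPM over the 4 libraries, the highest level of all 83 genes, Atp5g2 31 and Atp5g1 9.65. The main transcript taken for Atp5g1 was 4715 bases long, against 731 for Atp5g2 and 723 for Atp5g3. The low value of Atp5g1 per kb rests on that choice, and in CPM it exceeded Atp5g2 in every library. Atp5g3 stood at 83 and 71.7 against 91.4 and 75.2 CPM. Atp5g1 stood at 41.6 and 48.7 against 49.6 and 41.9 CPM. Both overlapped between groups. Atp5g2 did not, at 21.7 and 19.4 against 25.8 and 23.7 CPM, but it has 2 near-identical copies. The 2 lowest values of the complex belonged to the genes whose products are not subunits. Atp5s, a coupling factor, stood at 24.6 and 30.9 against 23.3 and 19.8 CPM (log2FC -0.36, SE 0.28, edgeR adjusted p = 0.506). Atp5sl, known as an assembly factor of complex I, stood at 81.1 and 98.5 against 85 and 62.9 CPM (log2FC -0.28, SE 0.21). Without these 2 genes the median of complex V was 0.194.

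The largest differences belonged to tissue-restricted and inducible isoforms. A log2 fold change beyond 0.5 in either direction was seen in 4 of the 83 genes (4.82%, against 39.1% of all genes tested), and all 4 are such isoforms. Cox4i2 (ENSMUSG00000009876, GRCm38 chr2:152754173-152765037, plus strand) encodes the subunit 4 form known from lung and induced by low oxygen. It stood at 4.69 and 4.16 CPM in WT and 6.14 and 15.1 CPM in Itch KO, from 44, 51, 50 and 146 counts. Its log2 fold change was 1.26 (SE 0.62, edgeR adjusted p = 0.339). The difference came mainly from Itch KO replicate 2, and without that library it was 0.47. Cox4i1 differed less, as given above.

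Cox6b2 (ENSMUSG00000051811, GRCm38 chr7:4751792-4753094, minus strand) is the testis form of subunit 6b. It stood at 8.43 and 11.4 against 16.6 and 26.5 CPM, from 79, 140, 135 and 257 counts, with means of 9.92 ± 2.11 and 21.6 ± 7.04 CPM (SD, n = 2 each). Its log2FC was 1.12 (SE 0.44, edgeR adjusted p = 0.268), and the groups did not overlap. Its partner Cox6b1 stood at 39 and 33.7 against 49 and 41.4 CPM (log2FC 0.31, SE 0.20).

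Cox8b (ENSMUSG00000025488, GRCm38 chr7:140898945-140900446, minus strand) is the form of subunit 8 used in heart, skeletal muscle and brown fat. It stood at 5.01 and 4.16 CPM in WT and 0.369 and 1.65 CPM in Itch KO, from 47, 51, 3 and 16 counts. The log2 fold change was -2.15 (SE 0.82), with the smallest p of all 83 genes (edgeR adjusted p = 0.264). Both Itch KO libraries were lower, and 1 of them held 3 counts, so the size of the difference is imprecise. The ubiquitous Cox8a stood at 40.6 and 34.6 against 49.4 and 40.3 CPM, in the other direction (log2FC 0.25, SE 0.21). The brown fat marker Ucp1 had 0 counts in 3 libraries and 1 in Itch KO replicate 2. Cidea, another of the adipocyte markers, was lower in Itch KO, at 23 and 19 counts in WT against 3 and 8. The striated muscle and adipocyte markers that moved between libraries are given above, and their part in the Cox8b values was not tested.

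The other restricted forms overlapped between groups. Cox6a2, the heart and skeletal muscle form of subunit 6a, stood at 5.12 and 0.0815 against 1.84 and 4.13 CPM, from 48, 1, 15 and 40 counts. WT replicate 1 was the highest, and WT replicate 2, with 1 count, was near 0. Without WT replicate 1 the comparison rests on that single count, so no fold is given. Striated muscle markers summed to 347 and 63.7 CPM in WT and 41.7 and 44.3 CPM in Itch KO. WT replicate 1 was highest there too, but WT replicate 2 lay above both Itch KO libraries. The part of these markers in the Cox6a2 values was not tested. Cox6a1, its ubiquitous partner, stood at 41.1 and 35.9 against 51.4 and 42.8 CPM. Cox7a1, the muscle form of subunit 7a, stood at 16.9 and 16 against 21.1 and 13.4 CPM. Its partner Cox7a2 was at 38 and 33.1 against 47.2 and 38.5 CPM.

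Ndufa4l2 is a paralog of Ndufa4 that low oxygen induces. It stood at 16.3 and 4.16 against 10.3 and 20 CPM (log2FC 0.57, SE 0.81, edgeR adjusted p = 0.716). The libraries of both groups were far apart: WT replicate 2 was lowest and Itch KO replicate 2 highest. Endothelial and fibroblast markers summed to 1452 and 945 CPM in WT and 1215 and 1861 CPM in Itch KO, with the libraries in the same order as for Ndufa4l2. Their part in its values was not tested. Ndufa4 stood at 33.9 and 30.6 against 40.3 and 35.8 CPM (log2FC 0.24, SE 0.20). Per kb, the restricted forms averaged 4.11 (Cox6a2) to 42.9 CPM (Cox7a1) over the 4 libraries and their partners 57.6 (Ndufa4) to 80.4 CPM (Cox4i1). In all 6 pairs the restricted form was the lower one in every library.

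**Figure D2:**
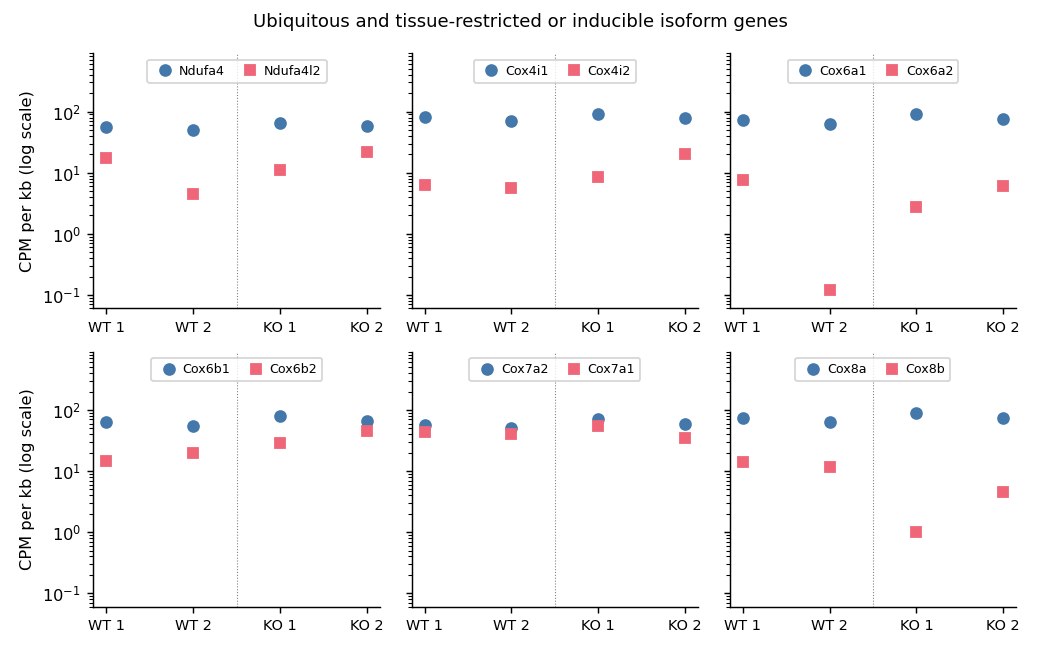
CPM per kb of the main transcript (log axis) in each library for 6 pairs of ubiquitous (circles) and tissue-restricted or inducible (squares) isoform genes, with WT left and Itch KO right of the dotted line. Circles stay between 50.1 and 92.2 CPM per kb, while squares of Cox6a2 range from 0.12 to 7.53 and those of Cox8b from 1.02 to 13.9.

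Without these 6 isoform genes the remaining 77 had the same median of 0.227 and 70 positive values. Their log2 fold changes ranged from that of Ndufb2 to that of Ndufa12, both given above.

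Itch KO replicate 1 held most of the difference. It was the highest library for 72 of the 83 genes (86.7%), against 26.6% of all genes tested. WT replicate 2 was the lowest library for 54 (65.1%), against 27.1% of all genes. As a deviation from each gene's mean log2 CPM, the median member stood at -0.048 and -0.159 in the WT libraries and at 0.215 and -0.018 in the Itch KO ones, in replicate order. Itch KO replicate 2 exceeded WT replicate 1 by a median of 0.038 on the log2 scale, which is small beside the 0.277 by which Itch KO replicate 1 exceeded it. The pattern was the same in each complex: Itch KO replicate 1 was highest for 34 of 38, 4 of 4, 8 of 8, 12 of 16 and 14 of 17 genes of complexes I to V. As a share of all counts, the members held 0.435% and 0.426% in WT and 0.53% and 0.459% in Itch KO.

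**Figure D3:**
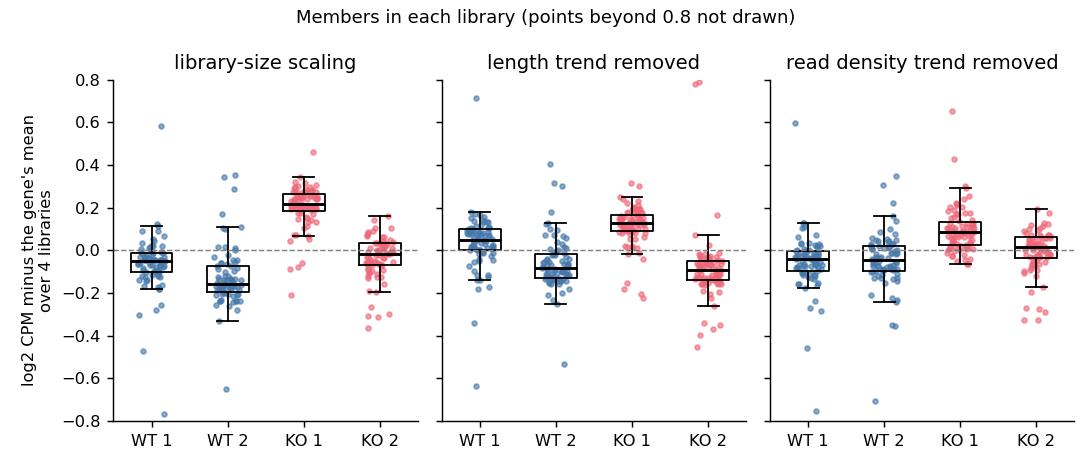
Log2 CPM of each subunit gene minus its own mean over the 4 libraries (points; boxes span the quartiles with the median as a line, whiskers the range without outlying points), with library-size scaling and with each library's trend on exonic length or read density removed. With library-size scaling Itch KO replicate 1 sits at a median of about 0.22 and WT replicate 2 at about -0.16, and these gaps shrink in the other panels.

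Short genes ran higher in Itch KO over the whole transcriptome, and most subunit genes are short. Median exonic length (union of annotated exons) was 1587 bases for the members and 4025 bases for all genes tested. Over all genes, the median log2 fold change was 0.41 up to 500 bases, 0.26 from 500 to 1000, 0.24 from 1000 to 2000, 0.12 from 2000 to 4000, -0.06 from 4000 to 8000 and -0.32 above 8000 bases. The members followed the same order from 500 bases on, with medians of 0.29 (19 genes), 0.23 (31 genes), 0.16 (20 genes) and 0.09 (10 genes) and a value of 0.02 for Ndufs1, the only one above 8000 bases. The 2 shortest were Ndufa1, a small complex I subunit with a log2 fold change of 0.26, and Cox8b. From 500 to 4000 bases each class median of the members lay within 0.05 of that of all genes, and above 4000 bases the members lay higher than all genes. Across genes, which share the same 4 libraries, Spearman's rho of log2 fold change with exonic length was -0.489 over the 83 members and -0.288 over 16805 genes. With the length of the main transcript it was weaker over the members, at -0.262.

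With each library's trend on exonic length removed, the median of the members was 0.033, against 0.009 over all genes, and 53 of 83 were positive. By complex it was 0.058, 0.022, 0.007, -0.015 and 0.043 for complexes I to V, so complex IV changed sign. Both Itch KO libraries then exceeded both WT libraries for 10 members and lay below them for 8, where 28.1% and 23.8% of all genes did so. The difference between the Itch KO libraries stayed, at a median deviation of 0.126 in replicate 1 and -0.093 in replicate 2. Cox4i2 (1.02), Cox6b2 (0.90) and Cox8b (-2.46) kept log2 fold changes of similar size.

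**Figure D4:**
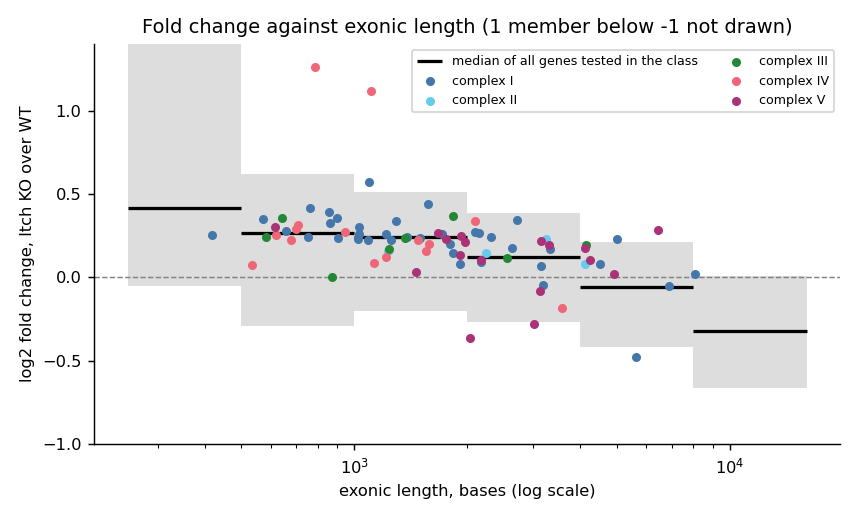
Log2 fold change of Itch KO over WT against exonic length (log axis) for the subunit genes, coloured by complex, over the median (black) and interquartile range (grey) of all genes tested in the same length class. The class medians of the members lie within 0.05 of those of all genes from 500 to 4000 bases. At 4000 to 8000 bases they lie higher (0.09 against -0.06). Cox4i2 and Cox6b2 lie furthest above the grey range, and some other members also lie outside it.

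Raw counts of the subunit genes differed little among WT replicate 1 and the Itch KO libraries. Atp5a1 held 1943, 2124, 1978 and 1925 counts in the WT and then the Itch KO libraries, and Atp5b 1945, 2160, 1846 and 1797. In 71 of the 83 genes (85.5%) the highest count among WT replicate 1 and both Itch KO libraries was at most 25% above the lowest, against 27.4% of all genes tested. The median member had 1.05 times as many counts in Itch KO replicate 1 as in WT replicate 1, where the median over all genes tested was 0.889 and the ratio of totals 0.846. For Itch KO replicate 2 the ratio was 1.06 both for the members and for all genes, at a total of 0.978. For WT replicate 2 it was 1.23 for the members and 1.31 for all genes, at a total of 1.26. Ordered by the CPM of the median member, the libraries stood in the reverse of their order by total counts.

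This went with read density. The median member had 0.495 and 0.616 counts per base of its main transcript in WT and 0.537 and 0.54 in Itch KO, against 0.155 and 0.211, and 0.137 and 0.171, for all genes. In no library did a member exceed 1.22 counts per base, the value of Atp5g3 in WT replicate 2. Whether duplicate reads were removed before counting is not given in the sources used here. If they were, counts of dense genes may not be in proportion to their RNA, and CPM values and fold changes of the members may shift with depth, which was not tested. Of 15446 genes ranked by counts per base, the densest decile held 52 of the members and the 3 densest deciles 69. In that decile, genes of all kinds had a median log2 fold change of 0.17 with an interquartile range of 0.286, and a median count ratio of Itch KO replicate 1 over WT replicate 1 of 0.999. In the sparsest decile these values were -0.459, 1.64 and 0.5. A further fit, added after the data were seen, removed each library's trend on read density. There, density was taken per base of exonic length, not of the main transcript as above. The members' median length is 1587 bases by the first measure and 861 by the second. The median log2 fold change of the members was then 0.099, with 64 positive and a value of -0.015 in complex II. In that fit 45 members were higher without overlap, 40 of them among the 45 of the fit without it, and 7 were lower, against 30.9% and 27.1% of all genes. The part of read density in the fold changes was not tested otherwise.

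**Figure D5:**
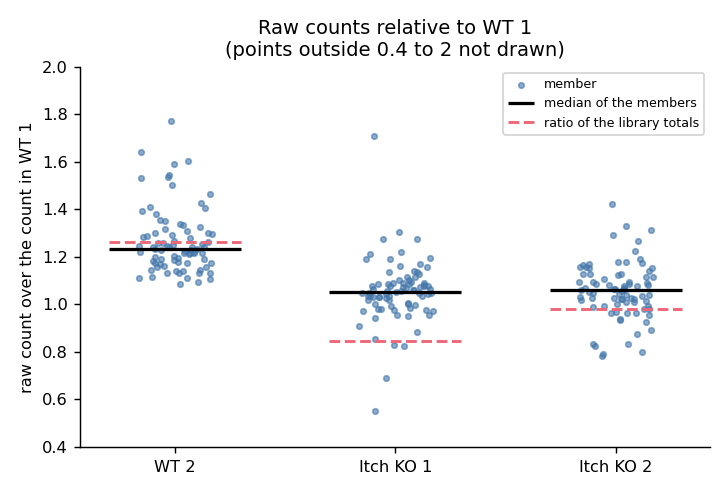
Raw count of each subunit gene in WT replicate 2 and the Itch KO libraries over its count in WT replicate 1 (points), with the median of the members (black line) and the ratio of the library totals (dashed line). The median ratio of 1.05 in Itch KO replicate 1 lies above its ratio of totals of 0.846, while the medians of the other 2 libraries lie near theirs.

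The mitochondrially encoded partners of these subunits overlapped between groups. The 13 genes had a median log2FC of 0.137, smaller than the replicate spread of their mean (0.171). No gene separated the groups, where 30% of all genes were higher and 26% lower without overlap. Their median read density was 0.983 and 1.06 counts per base of the main transcript in WT, and 0.914 and 0.925 in Itch KO. This is denser than the subunit genes, so the limit given above for dense genes holds for these 13 too. For mt-Atp6, the proton channel subunit of ATP synthase, the values were 65.9 and 58.2 against 76.9 and 65.1 CPM (log2FC 0.19, SE 0.16). The electron carriers pointed the same way. Cycs, cytochrome c, stood at 57.6 and 65.4 against 85.8 and 70.5 CPM (0.34, SE 0.17). Cyc1, the cytochrome of complex III, was at 93.8 and 85.1 against 114 and 91.7 CPM (0.20, SE 0.16). The list of cytochrome c and quinone-linked dehydrogenases had a median of 0.115 over 10 genes, of which 2 were higher and 3 lower without overlap. These are 20% and 30% of the list, against 30% and 26% of all genes. Chdh, choline dehydrogenase, stood at 219 and 188 against 159 and 82.5 CPM (-0.75, SE 0.35).

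For assembly factors the median log2FC was 0.06 (39 tested of 40 listed), with 13 higher and 3 lower without overlap. These are 33.3% and 7.69% of the list, against 30% and 26% of all genes. Sdhaf2, which attaches the flavin to Sdha, stood at 68.1 and 71.3 against 86.6 and 82.9 CPM (log2FC 0.28, SE 0.12, edgeR adjusted p = 0.298). Genes of the tricarboxylic acid cycle had a median of 0.057 over 13, with 2 higher (15.4%) and 0 lower without overlap. Its malate dehydrogenase gene Mdh2 stood at 105 and 91.9 against 126 and 107 CPM (log2FC 0.24, SE 0.15). No gene of these 2 lists had an edgeR p below 0.05.

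Regulators of mitochondrial genes had a median of -0.054 over 16 tested of 17 listed, with 2 higher and 4 lower without overlap. These are 12.5% and 25% of the list, against 30% and 26% of all genes. An unadjusted p below 0.05 was seen for 1 gene (6.25%, against 19.7% of all genes). That was Ppargc1a, the coactivator of mitochondrial biogenesis, at 146 and 143 CPM in WT and 42 and 12.2 CPM in Itch KO. Its log2 fold change was -2.42 (SE 0.61), and its edgeR adjusted p of 0.171 missed the threshold. The groups did not overlap, and the direction was opposite to that of most subunit genes. Its relative Ppargc1b stood at 44.3 and 62.6 against 36.1 and 21.6 CPM (-0.89, SE 0.35, edgeR adjusted p = 0.269). The factors whose motifs were searched had smaller differences. Nrf1 stood at 75.3 and 73.4 against 87.4 and 89 CPM (log2FC 0.25, SE 0.12). Gabpa, the DNA-binding chain of GABP, was at 123 and 101 against 97.2 and 90.6 CPM (-0.25, SE 0.15). Yy1 overlapped at 82.5 and 77.8 against 80.5 and 73 CPM. Tfam, which packages and transcribes mitochondrial DNA, overlapped at 72.9 and 92.7 against 90.9 and 86 CPM.

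Glycolysis genes, 23 in number, had a median log2FC of 0.235, close to that of the subunit genes, with 12 higher and 1 lower without overlap. These are 52.2% and 4.35% of the list, against 30% and 26% of all genes. No gene of the list passed edgeR's test after adjustment. Hk3, the hexokinase of myeloid cells, stood at 11.5 and 3.1 against 45.7 and 122 CPM (log2FC 3.54, SE 0.86, edgeR adjusted p = 0.163). Slc16a3, a lactate exporter, stood at 67 and 21.8 against 131 and 174 CPM (1.79, SE 0.58, edgeR adjusted p = 0.218). Neutrophil markers, which moved with Hk3, summed to 219 and 19.3 CPM in WT and 402 and 659 CPM in Itch KO, and their part in the result was not tested.

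Other large complexes had median fold changes at least as high as the respiratory chain. Median exonic length was 2213.5 bases for mitochondrial ribosomal protein genes, 1835 for cytosolic ribosomal protein genes and 2814 for proteasome genes. These lengths lie above the 1587 bases of the members and below the 4025 bases of all genes. Mitochondrial ribosomal protein genes had a median log2 fold change of 0.302 over 75, with 59 higher and 0 lower without overlap. Cytosolic ribosomal protein genes had a median of 0.319 over 76, with 66 higher and 1 lower. Proteasome genes had 0.329 over 38 tested of 39, with 37 higher and 0 lower. In the same order of lists, 78.7%, 86.8% and 97.4% were higher without overlap, against 30% of all genes. Lower were 0%, 1.32% and 0%, against 26% of all genes. In these lists 9, 3 and 8 genes had an unadjusted p below 0.05, all of them higher, and 0 passed after adjustment. These are 12%, 3.95% and 21.1% of the lists, against 19.7% of all genes. Mrps7, of the small mitochondrial ribosomal subunit, stood at 57.9 and 60.5 against 83.9 and 76.3 CPM (0.44, SE 0.13, edgeR adjusted p = 0.206). Rpl13a stood at 80.8 and 70.4 against 106 and 95.6 CPM (0.41, SE 0.14, edgeR adjusted p = 0.228). The interferon-induced proteasome subunit gene Psmb9 stood at 55.2 and 48 against 102 in both Itch KO libraries (0.99, SE 0.14, edgeR adjusted p = 0.123). The lists were not tested against each other.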

How the data were processed

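The authors deposited raw read counts per gene, 1 table per library. Builds mm10 and GRCm38 are named in the submitters' processing notes, and the tools listed there are HTSeq 0.6.1, TopHat2, CASAVA 1.8.2 and SAMtools 0.1.19. The sources used here do not give the strand setting, the annotation version or any duplicate removal. Per the file headers, WT replicate 1 lists 19308 genes with symbols, and 39179 genes stand in each of the other 3, with 5 HTSeq summary lines that include reads outside genes (18.2% to 23%) and ambiguous reads (2.67% to 3.03%). These lines were left out, and the 19308 shared genes hold at least 97.3% of the gene counts.

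CPM used TMM factors. The test was edgeR 4.0.16 (R 4.3.3), quasi-likelihood and robust, two-sided, group only, over 16956 genes kept by filterByExpr (minimum count 10), Benjamini-Hochberg threshold 0.05. The biological coefficient of variation was 34.8%. Scripts were tested on simulated counts. Lengths and copies came from GENCODE M21 (BLAST 2.17.0, at least 95% identity over at least 50% of the main transcript): 11 members have such copies. In 3 members (Ndufa13, Ndufb6 and Atp5o) at least 20% of exonic bases overlap another gene. Trends on exonic length and on density (mean count per base of exonic length) were loess fits (span 0.3) entered as offsets. The other alternatives were RLE and upper quartile factors, 2 filters, DESeq2 1.42.0, limma voom 3.58.1, a replicate block and each library left out.

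Members, lists and rules were chosen with earlier results of these data known. By rule, named genes were Itch, Cycs, Cyc1, core subunits, isoform pairs, in each complex the genes with the highest level per kb, the smallest p and the extreme fold changes, and in each pathway list the gene with the smallest p. Other named genes were chosen after their values were seen, and some genes that the rules take are not reported here.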

Additional observations from a re-analysis of the deposited data

How the results depend on the processing

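No member was called by edgeR, limma voom or DESeq2 under any alternative run, and the smallest adjusted p of a member ranged from 0.227 to 0.472. DESeq2 called 1696 of the 16956 genes and the other fits 0. At an unadjusted p below 0.05 there was 1 member with DESeq2 (Cox6b2), 1 with limma voom and 1 with the length trend removed (both Cox8b), and 0 to 2 with 1 library left out (Cox4i2 and Cox6b2 without Itch KO replicate 1, Cox8b without Itch KO replicate 2, Cox6a2 without WT replicate 1). With the length trend removed the median log2 fold change was 0.033 over all members, 0.058 in complex I, 0.007 in III, -0.015 in IV and 0.043 in V. In that fit 10 members were higher and 8 lower without overlap, against 28.1% and 23.8% of all genes. With the read density trend removed it was 0.099 over all members, 0.129 in complex I, -0.015 in II and 0.03 in III. Both fits remove a trend estimated over all genes with a known exonic length. The part of either trend in the fold changes was not tested otherwise. With 1 library left out the median ranged from 0.094 to 0.33 over all members, 0.116 to 0.352 in complex I, 0.065 to 0.346 in III and 0.043 to 0.288 in V. RLE factors and DESeq2 gave a median of 0.2. With RLE factors 40 members were higher and 4 lower without overlap, against 28.4% and 27.9% of all genes. With upper quartile factors 54 were higher and 3 lower, against 30.5% and 26.4% of all genes. Among the 50 genes named by rule, the sign differed for 13 with the length trend removed, 9 with the density trend removed and 8 without Itch KO replicate 1.

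The replicate numbers in the titles were not stated to pair libraries, and deviations from the group means of same-numbered libraries had a correlation of 0.0481 across 16956 genes. With the replicate block the median of the members was 0.223, 74 were positive and 0 were called. Depth limits the restricted isoforms most: 3 counts correspond to 0.246 to 0.367 CPM, and Cox6a2 and Cox8b each had a library at or below this. Missing calls do not show equal levels.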

Other observations

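The 3 count tables with the longer gene list hold 12 further names that match the symbol pattern and are absent from the table of WT replicate 1, so they entered no comparison. They are given as raw counts in WT replicate 2, Itch KO replicate 1 and Itch KO replicate 2. Cox8c and Cox7b2, testis forms of complex IV subunits, had 0, 0 and 1 counts and 1, 0 and 0 counts, so both were near 0 in these 3 libraries. Cox6c2 had 108, 96 and 95 counts, Ndufb4c 243, 197 and 198, and Ndufs6b 126, 107 and 132. Of the 12 names, 10 had at least 10 counts in each of the 3 libraries. Some of these names are copies of members, such as Ndufab1-ps at 202, 183 and 181 counts.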
